A study of Homo sapiens with 4 samples.

Results

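Metallothioneins are small intracellular proteins whose cysteines hold zinc and copper and also bind cadmium, and SLC30A1 (also called ZnT1) is the zinc transporter of the plasma membrane that moves zinc out of the cell. To describe this zinc-buffering system in colorectal cancer cells, 7 genes chosen by name were examined: the metallothioneins MT1E, MT1F, MT1G, MT1M, MT1X and MT2A, and SLC30A1. They are 7 of the 58735 genes listed for each library. Of the 7 genes, 5 were above 0 FPKM and passed the filter on low values (a mean of at least 1 FPKM), whereas MT1G and MT1M were listed at 0 in every library. FPKM, the fragments of a gene per unit of exon length and of library size, is a level that can be compared between genes.

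The cells were HCT116, an established human colorectal carcinoma line, so every library stems from 1 line. RNA was sequenced 48 h after transfection with control siRNA (2 libraries) or with siRNA against KIF26B (2 libraries), a kinesin family gene. The labels give no genotype beyond the line. Which KIF26B siRNA went into which library is not stated, nor whether the replicates were separate cultures. The paper used 2 KIF26B siRNAs in this line, and the names of these 2 libraries are numbered unlike those of the controls. They may hold different siRNAs, and the spread between them may include that difference. The p-values below therefore measure the spread between these libraries, which may be technical.

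The targeted gene was examined first. KIF26B stood at 0.110 and 0.205 FPKM in control siRNA replicates 1 and 2, from 31 and 73 reads. It stood at 0.140 FPKM (43 reads) in KIF26B siRNA replicate 1 and at 0.0307 FPKM (8 reads) in KIF26B siRNA replicate 2. The library labelled KIF26B siRNA replicate 1 thus lay between the control libraries, against its label, and the differences of the members are also given without it. Recovered reads summed to between 18794412 and 24337330 per library, and mitochondrial genes held 6.97% and 6.98% of them in the control libraries against 9.79% and 7.86% in the libraries labelled KIF26B siRNA. Epithelial markers (7 of 10 at or above 1 FPKM in every library, with KRT20 and VIL1 below 1 FPKM and CDX1 at 0) summed to 1759 to 1775 FPKM in the control libraries and 1623 to 1702 FPKM in the libraries labelled KIF26B siRNA. Markers of fibroblasts summed to 4.87 to 8.76 FPKM, of which COL1A1 was the only one at or above 1 FPKM in every library, those of leukocytes to 0.386 to 0.674 FPKM and those of endothelial cells to 0.114 to 0.402 FPKM. In bulk RNA, fewer cells of a type and less RNA per cell cannot be told apart.

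Metallothionein genes respond to metal through MTF1, a zinc-sensing transcription factor that binds short metal response elements in their promoters, and SLC30A1 is a known MTF1 target too. Free zinc thereby raises both its buffer and its exporter. Glucocorticoids and oxidants are also known inducers of several metallothioneins, and for this reason genes of those responses are described with them.

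The human family lies mostly in a single cluster on chromosome 16. Of 16 metallothionein genes and pseudogenes examined there, 8 were listed at 0 in every library and 5 were above 1 FPKM in every library, namely MT2A, MT1E, MT1X, MT1F and the pseudogene MT1DP. Seen on GRCh38, MT2A occupies 56608584 to 56609497 on the plus strand of chromosome 16. MT1E follows at 56625781 to 56627112, which is 17.2 kb further along, MT1F at 56657959 to 56659303, and MT1X at 56682470 to 56684196, which is 73.9 kb from MT2A. MT1M (56632659 to 56633981) lies between MT1E and MT1F, and MT1G (56666730 to 56668065) on the minus strand lies between MT1F and MT1X. High and silent genes were therefore interleaved over this stretch.

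**Figure D1:**
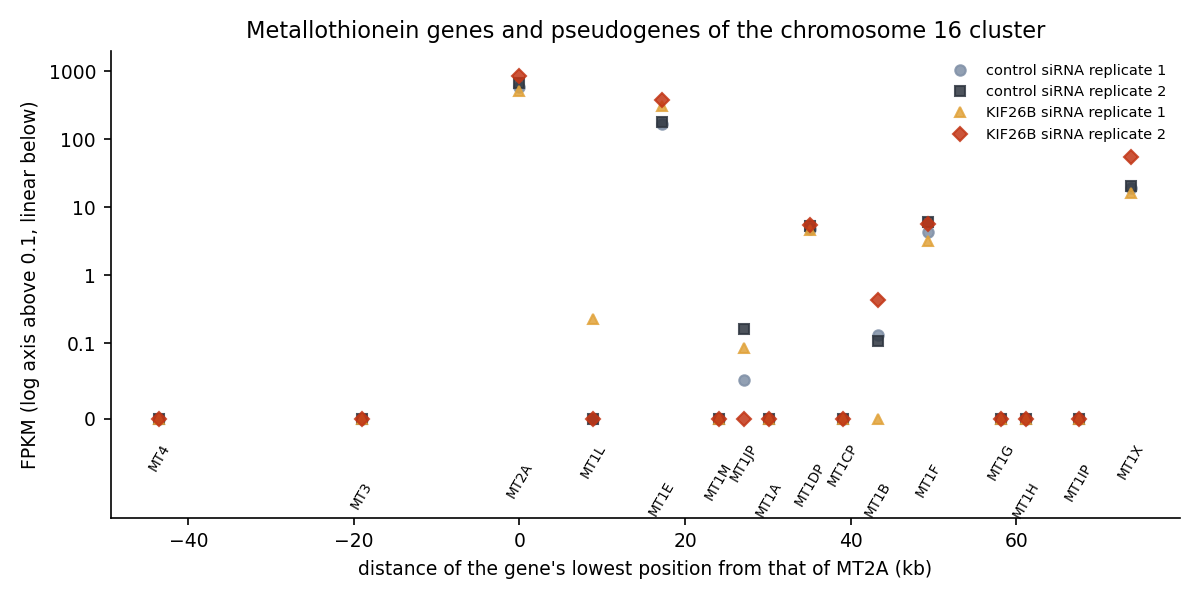
FPKM of 16 metallothionein genes and pseudogenes in each of the 4 libraries (log axis above 0.1 FPKM, linear below), placed by the distance of each gene from MT2A in kb. MT2A and MT1E stood highest, MT1X was the third, and 8 of the genes sat at 0 in every library.

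Because the members are near-copies of each other, their coding sequences are shown first. Capitals mark the cysteine codons (TGC or TGT), which give the metal ligands. For each gene the annotated coding form with the most cysteine codons is printed, 5′ to 3′ along the gene's own strand.

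MT2A: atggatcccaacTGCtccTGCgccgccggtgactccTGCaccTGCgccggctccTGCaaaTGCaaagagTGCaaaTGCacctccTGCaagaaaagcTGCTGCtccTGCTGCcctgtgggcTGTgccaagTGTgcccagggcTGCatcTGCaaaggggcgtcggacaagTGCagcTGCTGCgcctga
MT1E: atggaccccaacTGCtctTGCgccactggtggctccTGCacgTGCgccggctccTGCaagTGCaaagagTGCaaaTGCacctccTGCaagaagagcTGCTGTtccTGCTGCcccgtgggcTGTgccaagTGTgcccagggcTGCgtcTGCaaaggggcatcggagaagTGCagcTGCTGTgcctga
MT1X: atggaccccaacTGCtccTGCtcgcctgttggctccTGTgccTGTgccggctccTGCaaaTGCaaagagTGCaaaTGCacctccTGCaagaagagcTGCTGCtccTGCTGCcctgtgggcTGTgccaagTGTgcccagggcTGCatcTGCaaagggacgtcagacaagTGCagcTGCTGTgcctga
MT1F: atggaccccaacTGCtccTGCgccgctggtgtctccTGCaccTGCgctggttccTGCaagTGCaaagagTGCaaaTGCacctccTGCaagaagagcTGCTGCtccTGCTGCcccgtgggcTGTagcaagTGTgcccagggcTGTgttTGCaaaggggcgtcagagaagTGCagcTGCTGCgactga

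Each of the 6 metallothionein members had such a form of 61 codons, and 20 of these were cysteine codons, or 32.8%. SLC30A1, with 507 codons, had 18 cysteine codons (3.55%). Pairs of the 6 metallothioneins shared between 88.7% (MT1F and MT1X) and 95.2% (MT1G and MT2A) of their coding bases, and MT1E and MT2A shared 92.5%. The annotation also holds a longer coding form of MT1E, of 384 bases. No run of 150 bases in the annotated transcripts of MT1E, MT1F, MT1G, MT1M, MT2A or SLC30A1 occurred in another gene, whereas 8.78% of such runs of MT1X also belonged to ENSG00000259827, an overlapping gene on the same strand that shares 18.6% of the exon bases of MT1X. The level of MT1X is uncertain for this reason, by an amount that these shares do not give. How reads over the shared bases were counted was not examined. Reads that carry sequencing errors, or shorter matches between copies, were not examined.

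MT2A was the most abundant member in every library. Its level was 582 and 660.2 FPKM in the control libraries, from 14840 and 21159 reads. It was 517 FPKM (14357 reads) in KIF26B siRNA replicate 1 and 837 FPKM (19640 reads) in KIF26B siRNA replicate 2. The control libraries lay between the libraries labelled KIF26B siRNA, so the groups overlapped. Among the 14523 genes tested, MT2A ranked 41 and 40 in the control libraries and 51 and 38 in the others. On the log2(FPKM + 1) scale the difference of the group means was 0.09 (SE 0.27, 95% interval -0.68 to 0.85, n = 2 libraries per group), with an adjusted p of 0.894 in limma over all genes tested. Without KIF26B siRNA replicate 1 the difference was 0.43, and without replicate 2 it turned to -0.26.

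MT1E stood apart from the other members, since both libraries labelled KIF26B siRNA lay above both control libraries. Its level was 165 and 179 FPKM in the control libraries (3408 and 4645 reads), 305 FPKM in KIF26B siRNA replicate 1 (6857 reads) and 380.0 FPKM in KIF26B siRNA replicate 2 (7223 reads). The group means were 172 ± 9.84 FPKM and 343 ± 53.0 FPKM (SD, n = 2 each), a ratio of 1.99. Each library labelled KIF26B siRNA exceeded the control mean, by 1.77-fold and 2.21-fold. Counting error was small beside this, between 1.18% and 1.71% of the level in each library. Among all genes tested, MT1E ranked 169 and 158 in the control libraries and 87 and 78 in the others.

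The difference in MT1E was 0.98 on the log2(FPKM + 1) scale (SE 0.16, 95% interval 0.54 to 1.43), with an unadjusted P of 0.00358 and an adjusted p of 0.242 in limma. It did not reach the fold threshold of the call rule, which asks for an unadjusted P below 0.05 and an absolute log2 fold change above 1. With that rule 0 of the 5 members tested were called in either direction, against 0.813% of all genes tested called higher and 0.606% called lower. At an unadjusted P below 0.05 alone, MT1E was the 1 member called higher of the 5 tested and 0 were lower, where 7.74% of all genes tested were higher and 8.68% lower by limma. At an adjusted p below 0.05, limma called 0 of 14523 genes, 0.00%, and limma-voom on recovered reads also called 0. A gene with both libraries labelled KIF26B siRNA above both control libraries was common too, at 24.9% of all genes tested, with 27.8% showing the reverse. An exact two-sided permutation test on 2 against 2 libraries cannot go below 0.333.

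Without KIF26B siRNA replicate 1 the MT1E difference was 1.14, and without KIF26B siRNA replicate 2 it was 0.82. In those fits the lone library is assumed to vary as the controls do, and 46.5% and 40.2% of all genes tested then had an unadjusted P below 0.05. Without replicate 1, 2 members (MT1E and MT1X) passed both thresholds upwards and 0 downwards, against 2.30% and 1.34% of all genes tested.

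**Figure D2:**
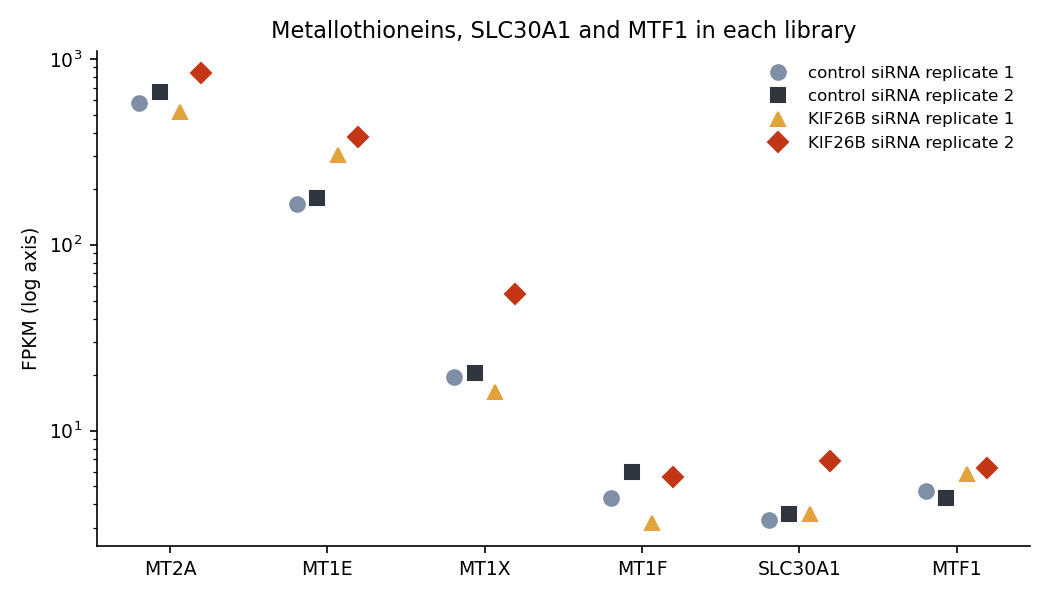
FPKM (log axis) of the 5 detected members and of MTF1, with 1 point per library. MT1E was at 165 and 179 FPKM in the control libraries and at 305 and 380.0 FPKM in the libraries labelled KIF26B siRNA, while MT2A, MT1X, MT1F and SLC30A1 had KIF26B siRNA replicate 1 near or below the control libraries.

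MT1X showed the widest gap between the libraries labelled KIF26B siRNA. It measured 19.3 and 20.4 FPKM in the control libraries (672 and 894 reads), 16.2 FPKM in KIF26B siRNA replicate 1 (612 reads) and 54.1 FPKM in KIF26B siRNA replicate 2 (1733 reads). Replicate 2 thus held 3.35 times the level of replicate 1, while the control libraries differed by 1.06-fold. The 2 libraries labelled KIF26B siRNA fell on opposite sides of the controls, at 0.813 and 2.72 times the control mean. The difference of the means was 0.56 (SE 0.61, 95% interval -1.12 to 2.24) with an adjusted p of 0.674 in limma. It was 1.40 without KIF26B siRNA replicate 1 and -0.28 without replicate 2, so its direction rested on 1 library.

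MT1F was low and did not separate the groups. Its levels were 4.34 and 5.99 FPKM in the control libraries and 3.17 and 5.65 FPKM in KIF26B siRNA replicates 1 and 2, from 161, 279, 128 and 193 reads. The control libraries themselves differed by 1.38-fold, more than for the other members, with counting errors of 5.99% to 8.84% per library. The difference was -0.21 (SE 0.29, 95% interval -1.03 to 0.61, adjusted p = 0.742 in limma). It was 0.12 without KIF26B siRNA replicate 1.

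MT1G and MT1M gave no read in any library. At these depths, 3 reads, the number that a count of 0 allows, would have read 0.162 to 0.221 FPKM for MT1G and 0.238 to 0.325 FPKM for MT1M, given their annotated exon lengths. These limits cover counting error only. Expression below them was not detectable, and no comparison could be made for either gene.

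SLC30A1, the zinc exporter, lies on the minus strand of chromosome 1 at 211571568 to 211579161 (GRCh38). It was at 3.31 and 3.56 FPKM in the control libraries (356 and 481 reads), at 3.56 FPKM in KIF26B siRNA replicate 1 (416 reads) and at 6.84 FPKM in KIF26B siRNA replicate 2 (677 reads). Replicate 2 alone stood clear of the controls, at 1.99 times their mean against 1.03 times for replicate 1. The difference of the means was 0.43 (SE 0.30, 95% interval -0.40 to 1.26, adjusted p = 0.515 in limma). It was 0.82 without KIF26B siRNA replicate 1 and 0.04 without replicate 2.

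The 5 detected members were ordered alike in the control libraries. The control mean was 621 ± 55.3 FPKM for MT2A, 172 ± 9.84 FPKM for MT1E, 19.9 ± 0.797 FPKM for MT1X, 5.16 ± 1.16 FPKM for MT1F and 3.44 ± 0.175 FPKM for SLC30A1 (SD, n = 2). MT1F and SLC30A1 were neighbours whose ranges over the 4 libraries overlapped (3.17 to 5.99 and 3.31 to 6.84 FPKM). The other neighbours did not overlap: the highest MT1E library (380.0 FPKM) stayed below the lowest MT2A library (517 FPKM).

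All 5 detected members were higher in KIF26B siRNA replicate 2 than in replicate 1, and 4 of the 5 by at least 1.5-fold. Of all genes tested, 52.7% were higher in replicate 2, 16.3% were at least 1.5-fold higher in replicate 2 than in replicate 1 and 13.1% the reverse, while 8.69% differed by this much between the control libraries. MT1E was the exception with a ratio of 1.25. In the control libraries the members were 1.06-fold (MT1X) to 1.38-fold (MT1F) higher in replicate 2 than in replicate 1. How many of all genes tested were higher there was not counted. On the log2(FPKM + 1) scale, the median member lay 0.26 below the control mean in KIF26B siRNA replicate 1. In KIF26B siRNA replicate 2 it lay 0.82 above that mean. The median of all genes tested was -0.02 and -0.00 in these libraries. Over both libraries the median log2 fold change of the 5 members was 0.43, against -0.01 for all genes tested. Mitochondrial genes also held more of the reads in replicate 1 (9.79%) than in replicate 2 (7.86%). With scaling by the reads off the mitochondrial genome, the group difference in MT1E was 0.97 and that in MT1X kept its direction. This scaling divides by 0.970 in KIF26B siRNA replicate 1 and by 1.04 in replicate 2, which narrows the gap between them. The ratios between these replicates were not recomputed with it.

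Summed over the family, metallothionein FPKM was 771 and 866 in the control libraries, 842 in KIF26B siRNA replicate 1 and 1276 in KIF26B siRNA replicate 2. The sum in replicate 1 lay between the controls, at 1.03 times their mean, whereas that in replicate 2 was 1.56 times the mean. Without MT1E the sum in replicate 1 was 537 FPKM, below both controls (606 and 687 FPKM), and that in replicate 2 was 897 FPKM.

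The sum overlapped between the groups, whereas the shares of MT1E, MT2A and MT1F in it did not. Of single genes tested, 24.9% had both libraries labelled KIF26B siRNA above both controls and 27.8% below. MT1E supplied 21.4% and 20.7% of the sum in the control libraries and 36.2% and 29.8% in KIF26B siRNA replicates 1 and 2. MT2A supplied 75.5% and 76.3% in the controls against 61.5% and 65.6%, and MT1F 0.563% and 0.692% against 0.377% and 0.443%. These shares depend on each other, because they add up to the whole. The ratio of MT1E to MT2A, in which library scaling cancels out, was 0.284 and 0.271 in the controls and 0.590 and 0.454 in the libraries labelled KIF26B siRNA. With 2 libraries per group this ratio was not tested beyond its values, and the ratio of MT1E to MT1X did not separate the groups (8.55 and 8.76 in the controls, 18.9 and 7.02 in the others).

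**Figure D3:**
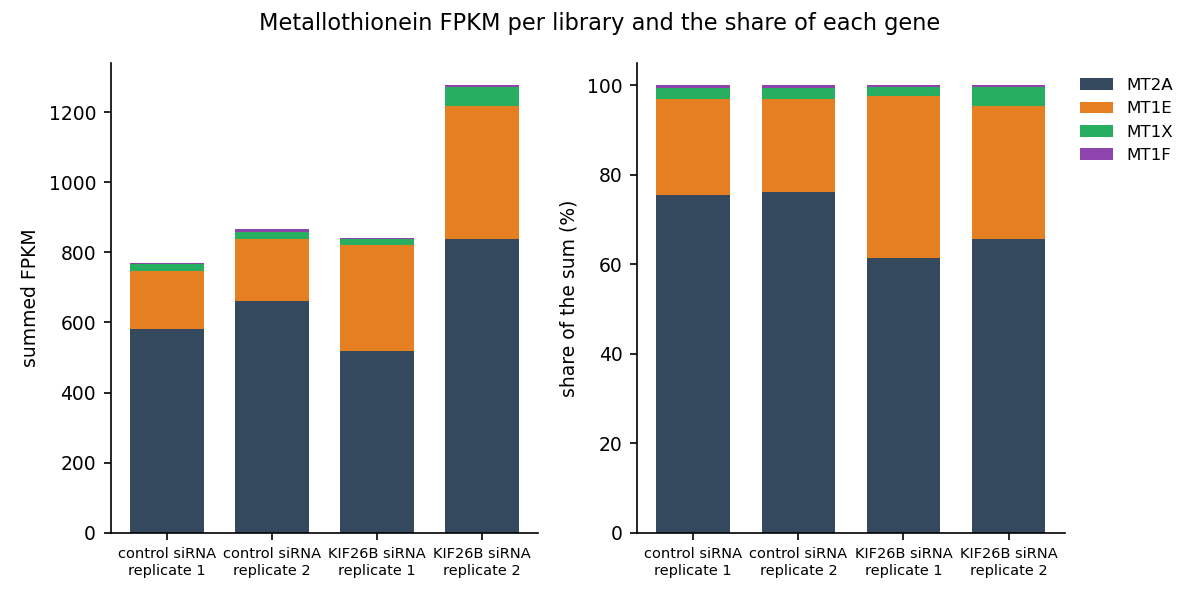
Summed FPKM of the metallothionein members in each library (left) and the share of each gene in that sum in percent (right), as stacked bars for MT2A, MT1E, MT1X and MT1F. The sum was 771, 866, 842 and 1276 FPKM from left to right, and the share of MT1E was 21.4% and 20.7% in the control libraries against 36.2% and 29.8% in the libraries labelled KIF26B siRNA.

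The remaining metallothionein genes were scarce. MT1A, MT1H, MT3 and MT4, the last 2 known from brain and from stratified epithelia, were listed at 0 in all 4 libraries, as were MT1HL1 and the pseudogenes MT1IP and MT1CP. MT1B reached 0.134 and 0.107 FPKM in the controls and 0 and 0.437 FPKM in KIF26B siRNA replicates 1 and 2. MT1DP was near constant at 4.80, 5.30, 4.66 and 5.51 FPKM in control siRNA replicate 1, control siRNA replicate 2, KIF26B siRNA replicate 1 and KIF26B siRNA replicate 2. MT1XP1 was at 1.10, 1.53, 1.26 and 0.298 FPKM in the same order, MT1JP did not exceed 0.162 FPKM, and MT1L was above 0 in KIF26B siRNA replicate 1 only, at 0.228 FPKM. MT1DP, MT1XP1 and MT1L are pseudogenes, and such copies may share reads with their parents.

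MT2P1, a processed pseudogene of MT2A on chromosome 4 that was named after its values were seen, was higher than any pseudogene of the cluster. It read 22.8 and 24.1 FPKM in the control libraries, 32.2 FPKM in KIF26B siRNA replicate 1 and 56.9 FPKM in KIF26B siRNA replicate 2. This was 3.92% and 3.66% of the MT2A level in the controls and 6.23% and 6.79% in the others. Its 183 bases were 95.7% identical to the coding sequence of MT2A, 93.0% to MT1G and 90.3% to MT1E. Its difference of 0.84 had an unadjusted P of 0.0504 and an adjusted p of 0.304 in limma. Without KIF26B siRNA replicate 1 the difference was 1.24, and without replicate 2 it was 0.44. How many of its reads came from MT2A or other family members was not tested.

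Next, the promoters of the members were examined, since metal response elements are short and their number differs between genes. The 250 bases before the start of MT2A, MT1X and SLC30A1 are given from RefSeq (GRCh38.p14). MT1E, MT1F, MT1G and MT1M had no entry. Capitals mark the core of the metal response element, searched as TGCACNC and TGCGCNC on both strands (written GNGTGCA and GNGCGCA on the other strand). These 3 stretches lie at chr16:56608334-56608583 on the plus strand for MT2A, chr16:56682220-56682469 on the plus strand for MT1X and chr1:211579162-211579411 on the minus strand for SLC30A1. Each is printed 5′ to 3′ on the strand of its gene.

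MT2A promoter: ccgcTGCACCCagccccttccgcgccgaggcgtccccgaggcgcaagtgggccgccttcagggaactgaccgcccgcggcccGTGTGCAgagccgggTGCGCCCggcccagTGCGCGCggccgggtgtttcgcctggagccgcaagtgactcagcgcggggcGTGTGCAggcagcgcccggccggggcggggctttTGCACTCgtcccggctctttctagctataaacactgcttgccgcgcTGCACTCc
MT1X promoter: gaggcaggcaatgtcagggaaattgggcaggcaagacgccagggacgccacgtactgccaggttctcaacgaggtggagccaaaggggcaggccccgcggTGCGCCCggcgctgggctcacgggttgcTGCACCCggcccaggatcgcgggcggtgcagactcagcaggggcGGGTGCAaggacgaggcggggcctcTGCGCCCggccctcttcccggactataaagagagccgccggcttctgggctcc
SLC30A1 promoter: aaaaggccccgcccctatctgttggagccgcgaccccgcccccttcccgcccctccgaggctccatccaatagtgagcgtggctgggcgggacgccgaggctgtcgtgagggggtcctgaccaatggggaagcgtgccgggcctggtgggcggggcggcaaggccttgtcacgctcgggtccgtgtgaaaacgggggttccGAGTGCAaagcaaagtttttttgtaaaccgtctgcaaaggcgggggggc

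The MT2A stretch held 7 matches, the MT1X stretch 4 and the SLC30A1 stretch 1. Among 35116 promoters of the same length, 24.8% held at least 1 match, 0.370% at least 4 and 0.0313% at least 7. The matches of MT2A closest to the start lay 8 and 54 bases before it, those of MT1X 53 and 78 bases and that of SLC30A1 49 bases before it. The letters TATAAA were found 29 bases before the start of MT2A and 30 bases before that of MT1X but not in the SLC30A1 stretch, and 6.80% of all promoters held them on the printed strand. A match is a description of these letters only. For comparison, KIF26B siRNA replicates 1 and 2 stood at 0.833 and 1.35 times the control mean for MT2A, 0.813 and 2.72 times for MT1X and 1.03 and 1.99 times for SLC30A1.

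MTF1, the factor that binds these elements, was higher in both libraries labelled KIF26B siRNA. It read 4.71 and 4.31 FPKM in the controls and 5.80 and 6.27 FPKM in KIF26B siRNA replicates 1 and 2, so that the groups did not overlap. The difference was 0.35 (SE 0.12, 95% interval 0.02 to 0.69), with an unadjusted P of 0.0407 and an adjusted p of 0.290 in limma. It was 0.40 without replicate 1 and 0.31 without replicate 2 of the libraries labelled KIF26B siRNA. Of all genes tested, 24.9% likewise had both libraries labelled KIF26B siRNA above both controls. At an unadjusted P below 0.05 in limma, 7.74% of all genes tested were higher.

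The other zinc transporters were then compared, both the SLC30 family, which moves zinc out of the cytosol, and the SLC39 (ZIP) family, which moves it in. Counting TMEM163, which was listed with them, 16 of 24 listed transporters were tested. At an unadjusted P below 0.05 in limma, 2 were higher and 2 lower, 12 did not pass, and 0 passed both thresholds. Of all genes tested, 7.74% were higher and 8.68% lower at this P. Their median log2 fold change was -0.05, against -0.01 for all genes tested.

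The 2 higher transporters were SLC39A7, which releases zinc from the endoplasmic reticulum, and SLC39A9, found at the Golgi. SLC39A7 was at 50.3 and 54.9 FPKM in the controls and 68.4 and 70.7 FPKM in the libraries labelled KIF26B siRNA, a difference of 0.40 with an adjusted p of 0.272 in limma. SLC39A9 was at 9.64 and 9.97 FPKM in the controls and 14.2 and 12.5 FPKM in the others, a difference of 0.41 (adjusted p = 0.274). The 2 lower ones were SLC30A4, a vesicular zinc transporter, and SLC39A8, a plasma membrane importer of zinc and manganese. SLC30A4 read 1.69 and 1.60 FPKM in the controls and 0.986 and 0.919 FPKM in the others, a difference of -0.44 (adjusted p = 0.252). SLC39A8 read 4.20 and 4.74 FPKM in the controls and 3.45 and 3.11 FPKM in the others, a difference of -0.35 (adjusted p = 0.301). Without KIF26B siRNA replicate 1 these differences were 0.42 for SLC39A7, 0.33 for SLC39A9, -0.46 for SLC30A4 and -0.41 for SLC39A8, none of them past the fold threshold.

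SLC30A1 was 1.92-fold higher in KIF26B siRNA replicate 2 than in replicate 1. Of the 16 other transporters tested, 0 differed by 1.5-fold or more in that direction, where 16.3% of all genes tested did, and 6 were higher in replicate 2 by any amount, where 52.7% of all genes tested were. SLC39A14, an importer of zinc and iron, went the other way, with 19.2 and 18.8 FPKM in the controls, 21.7 FPKM in replicate 1 and 11.8 FPKM in replicate 2. SLC39A1 was at 0.271 to 0.580 FPKM and was not tested. That value is uncertain, because SLC39A1 shares 60.8% of its exon bases with another gene on the same strand.

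**Figure D4:**
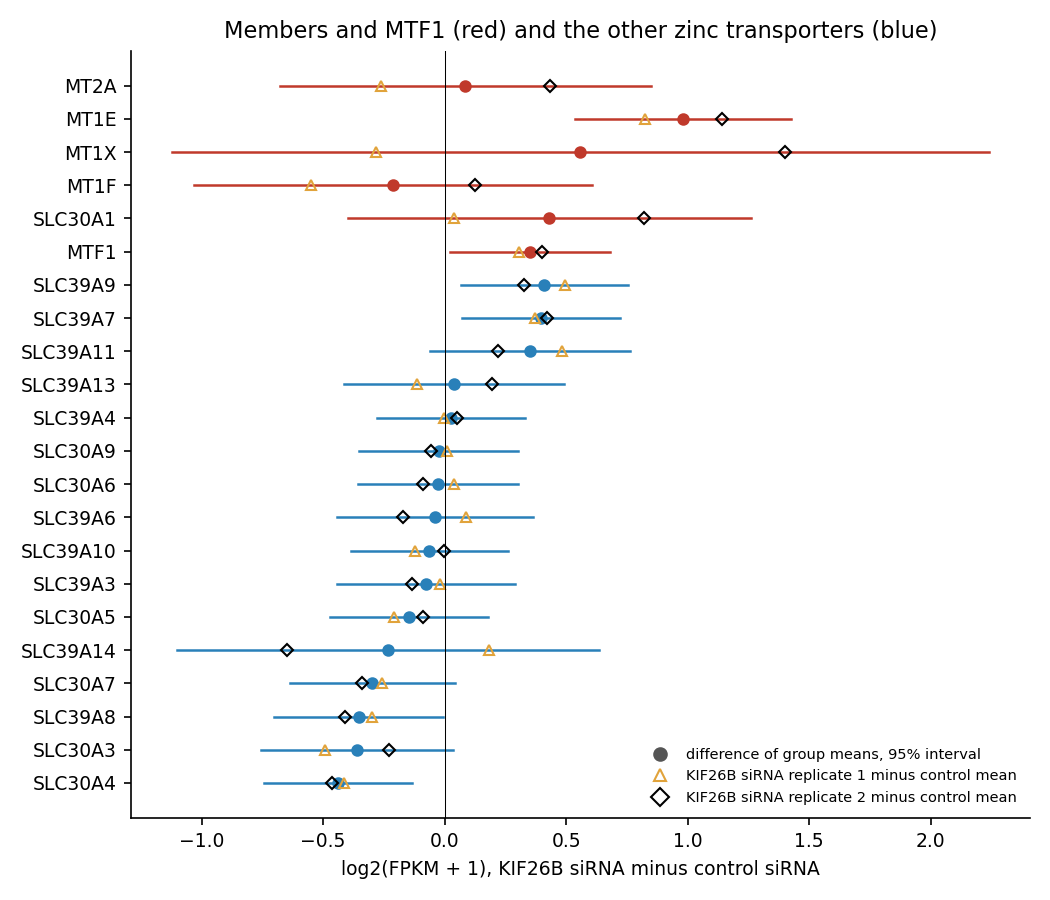
Difference between KIF26B siRNA and control siRNA in log2(FPKM + 1) for the 5 tested members and MTF1 (red) and 16 other zinc transporters (blue), with the 95% interval of limma as a line and the 2 libraries labelled KIF26B siRNA as open symbols. The interval of MT1E ran from 0.54 to 1.43, those of MT2A, MT1X, MT1F and SLC30A1 included 0, and the open symbols of MT1X lay at -0.28 and 1.40.

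Genes of copper and iron handling, whose proteins meet the same metals, were examined likewise. With MTF1 counted among them, 13 of 17 were tested, of which 2 were higher and 3 lower at an unadjusted P below 0.05 in limma and 0 passed both thresholds, with a median of -0.06. The shares over all genes tested were again 7.74% and 8.68%. Ferritin heavy chain FTH1, an iron-storage protein, was at 454 and 459 FPKM in the controls and 587 and 818 FPKM in KIF26B siRNA replicates 1 and 2, a difference of 0.60 (adjusted p = 0.289 in limma). The transferrin receptor TFRC, which imports iron, was at 68.1 and 69.7 FPKM in the controls and 48.5 and 44.9 FPKM in the others, a difference of -0.55 (adjusted p = 0.242). The copper exporter ATP7A (-0.38, adjusted p = 0.281) and COMMD1, a partner of copper trafficking (-0.38, adjusted p = 0.272), were also lower. FTH1 and COMMD1 share exon bases with overlapping genes (63.2% and up to 33.6%), so part of their reads cannot be told apart from those of their neighbours. Without KIF26B siRNA replicate 1 the differences were 0.84 for FTH1, -0.61 for TFRC, -0.44 for ATP7A and -0.43 for COMMD1, again short of the fold threshold.

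Of the 9 glucocorticoid targets tested and the 10 genes of metal and oxidant stress tested, 0 had an unadjusted P below 0.05 in limma. Of all genes tested, 16.4% had such a P in either direction. The medians of these lists were 0.14 and 0.18. Both lists held genes that stood high in KIF26B siRNA replicate 2 alone. Without replicate 1, 5 genes of the zinc, metal, glucocorticoid and stress lists passed both thresholds upwards and 0 downwards, against the same 2.30% and 1.34% of all genes tested. In that fit 15.5% of all genes tested had an adjusted p below 0.05. They are FTL, PER1, TSC22D3, OSGIN1 and SLC7A11, singled out after their values were seen.

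FTL, the ferritin light chain, was at 1017 and 1032 FPKM in the controls, 988 FPKM in replicate 1 and 2251 FPKM in replicate 2. The glucocorticoid-inducible clock gene PER1 was at 16.6 and 16.3 FPKM in the controls, 8.72 FPKM in replicate 1 and 46.7 FPKM in replicate 2. TSC22D3, which encodes the leucine zipper protein GILZ, was at 2.57 and 2.64 FPKM in the controls, 1.51 FPKM in replicate 1 and 9.38 FPKM in replicate 2. For these 3 genes, as for MT1X, replicate 1 lay below both controls and replicate 2 above both.

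OSGIN1, an oxidant-responsive gene, was at 3.46 and 4.18 FPKM in the controls, 4.63 FPKM in replicate 1 and 12.9 FPKM in replicate 2. The cystine importer subunit SLC7A11 was at 1.51 and 1.74 FPKM in the controls, 1.67 FPKM in replicate 1 and 4.59 FPKM in replicate 2. Of the 10 stress genes tested, 8 were higher in replicate 2 than in replicate 1, against 52.7% of all genes tested. By at least 1.5-fold, 4 were higher, against 16.3% of all genes tested. The other two were GCLM (8.05 and 7.72 FPKM in the controls, 8.18 and 14.0 FPKM in replicates 1 and 2) and SRXN1 (9.57 and 8.11 FPKM, then 7.27 and 12.8 FPKM), of which SRXN1 shares 90.7% of its exon bases with another gene on its strand. Some genes of these lists differed less or went the other way. Of the 9 glucocorticoid targets tested, 5 were higher in replicate 2 than in replicate 1, against 52.7% of all genes tested. NFKBIA, one of these targets, was at 13.6 and 12.8 FPKM in the controls, 11.3 FPKM in replicate 1 and 6.44 FPKM in replicate 2. HMOX1, heme oxygenase, was at 11.1 and 11.7 FPKM in the controls and 10.5 and 12.2 FPKM in the others, and FKBP5, a glucocorticoid target, was at 8.12 and 8.75 FPKM in the controls, 11.5 FPKM in replicate 1 and 7.60 FPKM in replicate 2.

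**Figure D5:**
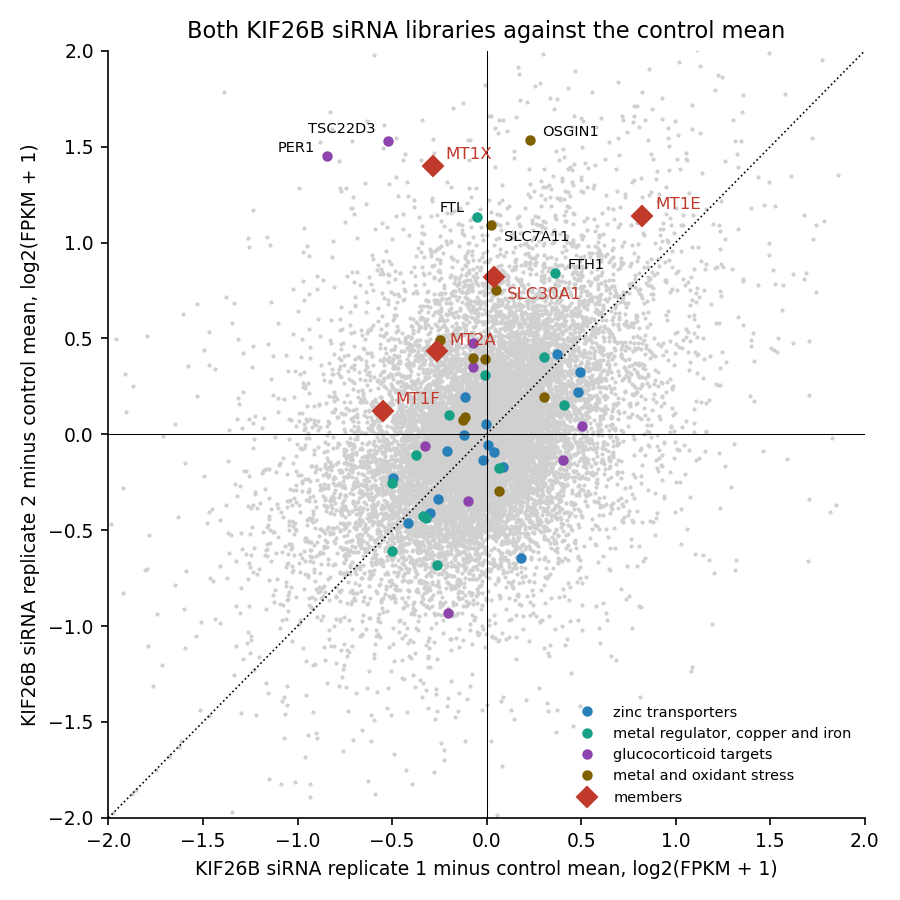
Difference of each library labelled KIF26B siRNA from the control mean in log2(FPKM + 1), replicate 1 on the horizontal and replicate 2 on the vertical axis, for 14523 genes (grey; 45 lie outside the range shown), the 5 tested members (red) and the other lists. All 5 members lie above the dotted line of equal values, with MT1E the closest to it and MT1X at -0.28 and 1.40, and FTL, PER1, TSC22D3, OSGIN1 and SLC7A11 also have replicate 2 above 1.

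Lastly, the 5 genes averaging 5 FPKM or more whose profile over the 4 libraries was closest to the mean profile of the 4 tested metallothioneins were sought among 7835 genes. They were TAFAZZIN, which encodes a cardiolipin transacylase of mitochondria, INE1, ENSG00000259865, the small nucleolar RNA SNORD11 and ENSG00000267073. Their root mean square differences from that profile ran from 0.0276 for TAFAZZIN to 0.0561 for ENSG00000267073 on the log2(FPKM + 1) scale. TAFAZZIN was at 3.78 and 4.60 FPKM in the controls, 3.78 FPKM in KIF26B siRNA replicate 1 and 7.88 FPKM in KIF26B siRNA replicate 2. The average was taken over all 4 libraries. TAFAZZIN, INE1 and SNORD11 were under 5 FPKM in the other libraries and passed only through KIF26B siRNA replicate 2. For genes near 5 FPKM the filter thus favours those high in that library. SLC30A1, whose mean is under 5 FPKM, differed from the profile by 0.0701, and 18 of the 7835 genes were closer than it. The metallothioneins were themselves farther from their mean profile, at 0.196 for MT2A, 0.334 for MT1X, 0.411 for MT1F and 0.483 for MT1E. Over 4 libraries such a likeness is a description only.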

How the data were processed

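RNA of 4 HCT116 libraries (2 control siRNA, 2 KIF26B siRNA, 48 h after transfection) was examined. The authors purified poly(A) RNA and made paired-end libraries with a NEBNext Ultra kit. Their processing notes name HISAT2 2.0.5, featureCounts 1.5.0-p3 and hg38, whereas their Methods name hg19. Whether counting used the strand is not given in the sources used here.

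The values the authors deposited are FPKM, 1 per gene and library, a unit read from the values. Of 58735 identifiers, 56513 had a symbol in GENCODE v44 lifted to GRCh37, which also gave exon overlaps and coding sequences. The files hold 6205 identifiers of a number range issued for annotation of the newer build, so coordinates and promoters come from RefSeq tables of GRCh38.p14. Whole reads were recovered for 100% of the 34638 genes above 0. The gene length was searched that turned a gene's 4 values into whole reads within 0.001, plus an allowance for rounding. After values were moved at random, 0 of 500 genes passed such a search. That check drew only on genes with many reads and searched a smaller range of lengths. For genes with few reads, which it did not cover, several lengths may fit. Median-of-ratios factors of the deposited values lay between 0.998 and 1.00.

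Groups were compared with limma 3.58.1 (R 4.3.3) on log2(FPKM + 1) for 14523 genes that averaged 1 FPKM or more, with no block. Moderation was by empirical Bayes and p-values were adjusted by Benjamini-Hochberg over all genes tested. On this scale changes of low genes are understated. A gene was called at an unadjusted P below 0.05 and an absolute log2 fold change above 1, the thresholds in the authors' Methods. The same functions were tested on simulated data.

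The members, gene lists and tests were chosen with earlier results of these data known. Named genes are the 7 members, KIF26B, MTF1, the metallothionein family, up to 6 genes per list with an unadjusted P below 0.05, and the 5 genes nearest in profile (averaging 5 FPKM or more). Others were chosen after their values were seen, as stated there. The alternatives were a replicate block, no filter on low values, a filter of 1 FPKM in each single library, a pseudocount of 0.1 FPKM, a variance trend, median-of-ratios scaling, limma-voom on recovered reads and leaving out each library. Scaling by total recovered reads and by reads off the mitochondrial genome were added after seeing the data. Promoters were searched in the 250 bases before each start. Python 3.11.15, pandas 2.3.3, numpy 2.4.6, matplotlib 3.10.9 and Biopython 1.88 were used.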

Additional observations from a re-analysis of the deposited data

How the results depend on the processing

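Over the 9 settings that kept all 4 libraries, MT1E stayed between 0.94 and 0.99 on the log2 scale with an unadjusted P below 0.05 in each (adjusted p from 0.153 to 0.391). MT2A, MT1X, MT1F and SLC30A1 kept their direction and passed in none of the 9. Leaving out each library in turn gave ranges of 0.82 to 1.14 for MT1E, which passed both thresholds without control siRNA replicate 2 (1.04) and without KIF26B siRNA replicate 1 (1.14), and -0.28 to 1.40 for MT1X, -0.26 to 0.43 for MT2A, -0.55 to 0.12 for MT1F and 0.04 to 0.82 for SLC30A1. Reversed were MT1X (-0.28) and MT2A (-0.26) without KIF26B siRNA replicate 2, MT1F (0.12) without KIF26B siRNA replicate 1, and MT2A (-0.00) without control siRNA replicate 1. The number of members called higher ranged from 0 to 2, and that of list genes called higher from 0 to 5.

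Of all genes, 118 were called higher and 88 lower. These counts were 69 and 52 with at least 1 FPKM in every library, 217 and 203 with a pseudocount of 0.1 FPKM, 198 and 204 with limma-voom, and 155 to 333 and 132 to 230 without 1 library. At an adjusted p below 0.05 there were 0 to 2254 without 1 library, where 1 library stands for a group, and 0 in each setting with all 4. The cause was not tested.

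The labels give both groups the replicate numbers 1 and 2. The deviations of same-numbered libraries from their group means had a correlation of -0.00 across genes. With 1 deviation per group, this value cannot decide whether same-numbered libraries were handled together. With the replicate block the adjusted p of MT1E was 0.391, and the number of genes at an unadjusted P below 0.05 was 1725 against 2385. Low counts limit MT1F (128 to 279 reads) and the silent MT1G and MT1M.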
